A study of Mus musculus with 18 samples.

Results

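Conventional and regulatory CD4+ T cells both leave a quieter state when they respond to antigen, and the changes in gene expression that accompany this step were compared between the lineages. The conventional shift was the log2 difference between Teff, which are CD44hi T cells, and Tnaive, which are CD44lo T cells. The Treg shift was the log2 difference between the mean of the populations with persistent Foxp3 transcription, Pers1 and Pers2, and the mean of the populations in which it had slowed or stopped, PAt and Arrested. For each gene the conventional shift was then subtracted from the Treg shift. Of 15402 genes in the table, the 13190 whose log2 values averaged 3 or more over the 18 libraries entered the comparison, and all 18 libraries of the series were used.

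All mice were female Foxp3-Tocky reporters on the strain given as C57/BL6 Foxp3Timer Foxp3-IRES-GFP. In these mice Foxp3 transcription drives Timer, a fluorescent protein that turns from blue to red with age. Every mouse had received 3% oxazolone, a contact sensitiser, on the abdominal skin, and CD4+ T cells were sorted from the draining lymph nodes on day 5, so that no population came from untreated animals. Tnaive and Teff carried neither Timer nor GFP. Pers1 was Blue-intermediate Red-low, Pers2 was Blue-high Red-high, PAt was Blue-low Red-high and Arrested was Blue-negative Red-intermediate. The 3 replicates of every population were pools of 3 mice, and whether libraries of 1 replicate number share a pool is not stated in the sources used here. The 6 libraries of the conventional shift and the 12 libraries of the Treg shift did not overlap.

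A resting T cell is held out of the cell cycle and circulates through lymph nodes under the control of factors such as Klf2, Tcf7 and Bach2. Antigen and costimulation replace this state by division, new homing receptors and effector genes. Conventional cells then acquire helper functions, such as the follicular programme under Bcl6 or cytokines under Maf and Irf4. Regulatory T cells acquire an effector programme in which Prdm1, the gene of the repressor Blimp-1, and suppressive molecules are prominent.

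The libraries within a population were alike, with correlations between replicates from 0.996 to 0.9988. CD44 and the Foxp3 reporter were sort criteria, so Cd44 and Foxp3 only check the labels. Cd44 read between 9.47 and 9.72 in Tnaive and between 13.04 and 13.05 in Teff. Foxp3 read between 14.36 and 14.85 in the 12 Timer+ libraries, between 11.27 and 11.38 in Tnaive and between 10.38 and 10.64 in Teff, so the reporter-negative populations were lower but not at the bottom of the scale. Within the Timer+ libraries it overlapped, at 14.56 to 14.85 in Pers1 and Pers2 and 14.36 to 14.65 in PAt and Arrested. Its Treg shift of 0.24 did not pass in size, so the Foxp3 level does not check the split between these populations. The CD4+ T cell markers Cd4, Cd3d, Cd3e, Cd3g and Lck were high in all 18 libraries, and 0 of the 5 passed the test in either shift.

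Teff libraries also read higher for marker genes of several other cell types, which bears on every result that rests on the conventional shift. Over the 7 plasmacytoid dendritic cell markers the log2 of the summed level was 12.9 to 13.4 in Teff and 11.1 to 11.9 in the other 15 libraries. Siglech, a receptor of plasmacytoid dendritic cells, read 10.78, 10.93 and 10.16 in Teff against 3.53 to 4.57 elsewhere. Bst2 and Irf8 of the same list were also high outside Teff. Their population means there were 10.46 to 10.83 and 7.87 to 10.49, against 10.96 and 11.60 in Teff. Over the 7 B cell markers the log2 of the summed level was 12.7 to 13.3 in Teff, 11.8 to 12.4 in PAt and Arrested, 11.3 to 11.5 in Pers1 and Pers2, and 9.89 to 10.4 in Tnaive. For macrophage or monocyte markers it was 10.9 to 11.2 in Teff and 9.11 to 10.03 elsewhere, and for conventional dendritic cell markers it was 10.3 to 10.5 in Teff and 6.62 to 7.14 elsewhere. CD8 T cell markers stood at 11.5 to 12.0 in Teff and 9.65 to 10.7 elsewhere, while NK cell markers overlapped in Teff (9.48 to 9.65) and Tnaive (9.53 to 9.78) and were lower in the Timer+ libraries (7.43 to 8.0). The monocyte marker Cd14 was close to 0.5 in every population.

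Of these markers, all 7 B cell genes, 6 of 7 plasmacytoid dendritic cell genes, 3 of 6 macrophage or monocyte genes and 4 of 5 conventional dendritic cell genes rose in the conventional shift. In the Treg shift, 3 B cell genes and 2 plasmacytoid dendritic cell genes fell, and the other members of both lists did not pass. Among all tested genes, 8.88% rose in the conventional shift and 2.77% fell in the Treg shift. The part of other cells in the results below was not tested, and in bulk samples a change in the share of a cell type and a change in RNA per cell cannot be told apart.

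**Figure D1:**
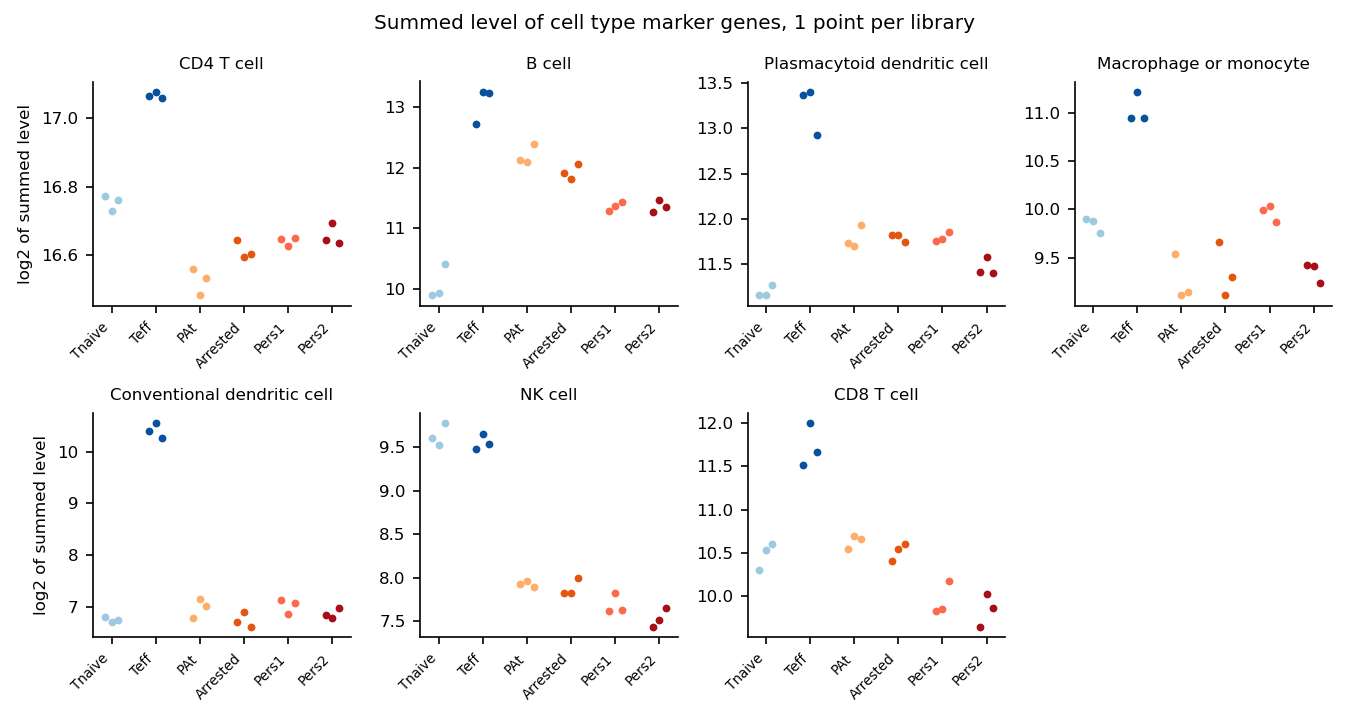
Log2 of the summed level of the tested marker genes of 7 cell types (y axis) in each of the 18 libraries, by population (x axis), with 1 point per library. The 3 Teff libraries are the highest in the lists of B cells, plasmacytoid and conventional dendritic cells, macrophages or monocytes and CD8 T cells.

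More genes passed both thresholds in conventional cells than in Treg, an order that turned without the fold threshold (7785 genes against 9357). The Treg shift passed the test (adjusted p under 0.05 by limma and an absolute log2 fold change over 1) in 990 of 13190 genes (7.51%), of which 625 were higher (4.74%) and 365 lower (2.77%). The conventional shift passed in 1472 genes (11.2%), with 1171 higher (8.88%) and 301 lower (2.28%). The difference between the shifts passed in 1110 genes (8.42%), and was above 0 in 200 of them (1.52%) and below 0 in 910 (6.9%). After quantile normalisation of the libraries the share of higher genes among the calls was 63.1% in place of 79.6% for the conventional shift and 35.3% in place of 18% for the difference, and the median conventional shift of all genes was -0.0994 in place of 0.0047. With libraries centred on their medians it was -0.078 and these shares were 73.6% and 19%, and why the scalings differ was not tested.

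The shifts of both lineages were related across genes. Over the 13190 genes Pearson's r was 0.51 and Spearman's rho was 0.54, which describes genes and not independent replicates, and 9242 genes (70.1%) moved to the same side of 0. The conventional shift was the more spread out, with an SD over genes of 0.79 against 0.59, although the median absolute shift was 0.26 against 0.28. The median standard error was 0.09 for the conventional shift, from 3 libraries against 3, and 0.06 for the Treg shift, from 6 against 6. Among the 1933 genes that passed in either shift, the conventional shift was the larger one in absolute size in 1250 (64.7%).

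Genes were then placed in classes from the 3 calls. Shared changes passed in both shifts in the same direction and numbered 488, with 372 higher and 116 lower. Treg-lineage changes passed in the Treg shift and in the difference but not in the conventional shift, and numbered 88 higher and 77 lower. Conventional-lineage changes, defined in the mirrored way, numbered 569 higher and 44 lower. Opposite changes passed in both shifts with opposite directions and numbered 41, of which 5 were higher and 36 lower in the Treg shift. A further 296 genes passed only in the Treg shift and 330 only in the conventional shift while their difference did not pass, so these were assigned to neither lineage. In 180 genes only the difference passed.

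**Figure D2:**
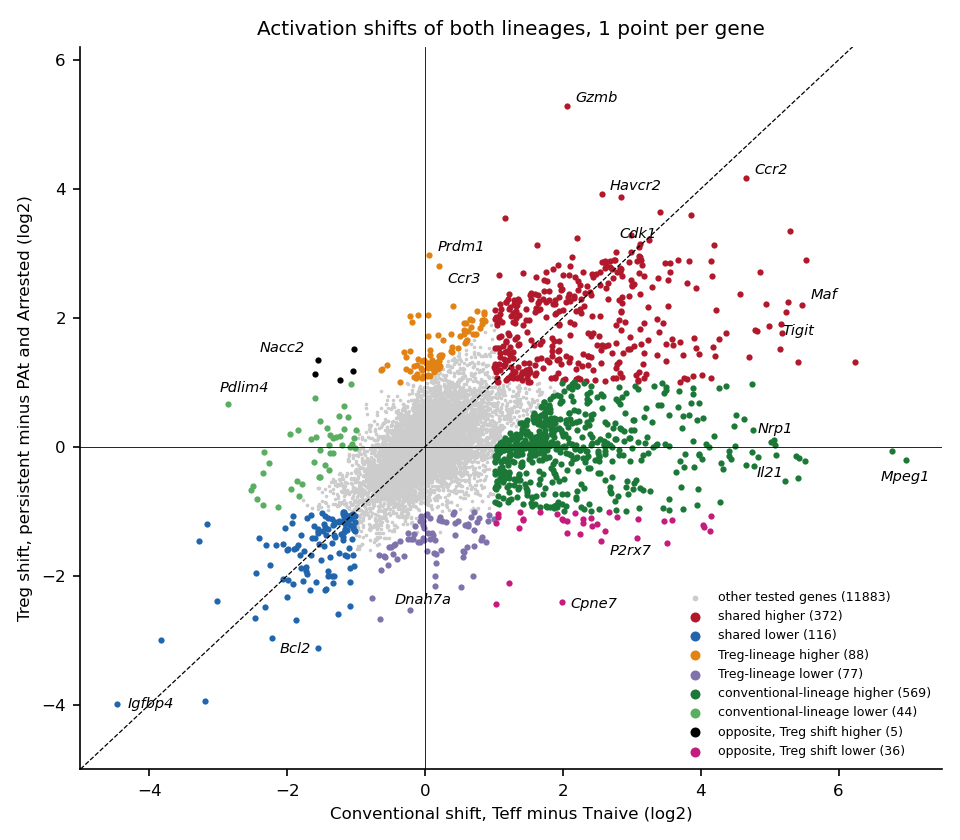
Each point is 1 of 13190 genes, with the conventional shift on the x axis and the Treg shift on the y axis, both as log2 differences. Colours mark the classes, the dashed line marks equal shifts, and the wide green field along the x axis holds the 569 genes that rose in Teff with a significantly smaller Treg shift.

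The genes that rose in both lineages made up 59.5% of those higher in the Treg shift and 31.8% of those higher in the conventional shift. Their median shift was 1.89 in Treg and 2.10 in conventional cells. The difference did not pass in 267 of the 372, was below 0 in 89 and above 0 in 16. The genes that fell in both made up 31.8% of the lower Treg calls and 38.5% of the lower conventional calls, with medians of -1.43 and -1.44, and the difference did not pass in 110 of these 116.

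Genes of cell division rose in both lineages by like amounts. Of 25 tested genes of mitosis and spindle, 25 rose in the Treg shift and 23 in the conventional shift, and the medians were 2.76 and 2.74. The difference passed above 0 in 1 gene and below 0 in 1, and after quantile normalisation in 5 and 1. For all tested genes the medians were -0.01 and 0.00, and 4.74% rose in the Treg shift and 8.88% in the conventional shift. Their difference passed above 0 in 1.52% and below 0 in 6.9%. Cdk1, the kinase that drives entry into mitosis (chromosome 10, 69335146 to 69352938, minus strand, GRCm38), read 5.64, 6.10 and 5.62 in Tnaive and 8.81, 8.94 and 8.59 in Teff. In Treg it read 8.01, 7.73 and 7.66 in PAt, 7.92, 7.62 and 7.54 in Arrested, 10.64, 10.54 and 10.72 in Pers1 and 10.93, 10.82 and 10.95 in Pers2. No Tnaive library reached a Teff library and no PAt or Arrested library reached a persistent one. The Treg shift of Cdk1 was 3.02 ± 0.10 (SE) and the conventional shift 2.99 ± 0.13, and the difference of 0.02 ± 0.16 did not pass (adjusted p = 0.919, limma).

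The proliferation genes started from different levels. PAt and Arrested cells stood above Tnaive in 20 of the 25 mitosis genes, against a background of 6.63% of all genes higher and 1.27% lower in that comparison, and Pers1 and Pers2 stood above Teff in Cdk1 by a log2 of 1.98. Both comparisons use the same libraries as the shifts. Ccnb1, which encodes cyclin B1, shifted by 3.10 in both lineages. Mki67, the gene of the Ki-67 antigen, rose by 2.88 ± 0.05 in Treg and 4.14 ± 0.08 in conventional cells, and this difference of -1.26 passed (adjusted p = 3.07e-10, limma). Kif23, a kinesin of the cleavage furrow, rose by 2.19 in Treg while its conventional shift was 0.40, and the difference of 1.79 passed as well (adjusted p = 9.76e-12, limma).

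DNA replication was less evenly divided. Of 27 tested replication genes, 25 rose in the Treg shift and 12 in the conventional shift, with medians of 1.75 and 0.87, and the Treg shift was the larger in 25. The difference passed above 0 in 10 genes and below 0 in 1, and after quantile normalisation in 14 and 0. Among all tested genes, 4.74% rose in the Treg shift and 8.88% in the conventional shift. As deposited, the difference of all tested genes passed above 0 in 1.52% and below 0 in 6.9%. Mcm3, a subunit of the replicative helicase (chromosome 1, 20802968 to 20820312, minus strand), read 10.79, 10.85 and 10.87 in Tnaive and 11.48, 11.32 and 11.39 in Teff. It read 11.20, 11.17 and 11.08 in PAt, 11.14, 10.84 and 10.92 in Arrested, 12.92, 12.90 and 12.87 in Pers1, and 13.21, 12.97 and 12.99 in Pers2. All 6 persistent libraries lay above all others, and Teff lay between these and the other populations. The shifts were 1.92 ± 0.05 and 0.56 ± 0.07, and the difference of 1.36 ± 0.09 passed (adjusted p = 3.39e-11, limma).

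Other members of the replication machinery followed the same order. Pcna, the sliding clamp, shifted by 1.20 in Treg and 0.11 in conventional cells, Mcm2 by 1.19 and -0.05, and the primase subunit Prim1 by 1.75 and 0.37. All these differences passed. The conventional shift was the larger in 2 genes, Tk1 and Uhrf1. Uhrf1, a reader of hemimethylated DNA, rose by 2.71 in Treg and 2.84 in conventional cells, and its difference did not pass. Tk1, thymidine kinase, rose by 1.56 in Treg and by 2.61 in conventional cells. Its difference of -1.05 passed as deposited, but lay at -0.76 after quantile normalisation, -0.96 with Pers2 alone, -0.88 with Arrested alone and between -1.20 and -0.93 when single libraries were left out, so its call was lost in these 3 settings, without Tnaive replicate 2 (-0.93) and without Arrested replicate 1 (-0.996).

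Promoters from these lists are shown because the letters of known cell cycle elements were unevenly spread over the mitosis and replication lists. Every promoter shown holds the letters marked in it, which not all genes of its list do. The window is the 150 bases before the annotated start (RefSeq, GRCm38.p6), printed 5′ to 3′ on the strand of the gene. GENCODE places some starts elsewhere, so that by its models the last 26 bases shown for Cdk1, with the second marked TTTGAA, and the last 9 for Cdc20 are exonic, and the window of Cdc6 lies inside the gene, which begins at 98907801. Capitals mark TTTGAA or its reverse complement, the letters of the cell cycle genes homology region, in the mitosis genes, and they mark TTTCCCGC or TTTGGCGC or their reverse complements, letters bound by E2F factors, in the replication genes.
Cdk1, chr10:69352913-69353062, minus strand: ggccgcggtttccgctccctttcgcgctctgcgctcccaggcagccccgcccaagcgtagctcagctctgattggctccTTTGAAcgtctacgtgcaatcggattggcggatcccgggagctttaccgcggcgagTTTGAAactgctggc
Cdc20, chr4:118437344-118437493, minus strand: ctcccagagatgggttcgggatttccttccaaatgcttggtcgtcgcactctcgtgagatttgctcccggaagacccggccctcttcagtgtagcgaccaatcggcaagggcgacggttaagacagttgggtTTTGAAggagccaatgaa
Kif11, chr19:37376232-37376381, plus strand: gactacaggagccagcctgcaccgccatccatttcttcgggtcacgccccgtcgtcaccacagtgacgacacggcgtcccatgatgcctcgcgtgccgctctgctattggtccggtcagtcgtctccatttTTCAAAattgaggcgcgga
Mcm6, chr1:128359706-128359855, minus strand: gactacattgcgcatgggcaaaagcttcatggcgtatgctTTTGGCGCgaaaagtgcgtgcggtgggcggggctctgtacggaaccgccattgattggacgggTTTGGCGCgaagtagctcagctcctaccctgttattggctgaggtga
Cdc6, chr11:98908001-98908150, plus strand: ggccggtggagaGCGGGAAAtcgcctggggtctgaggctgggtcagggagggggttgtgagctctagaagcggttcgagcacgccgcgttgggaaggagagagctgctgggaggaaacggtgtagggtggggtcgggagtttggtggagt
Pola1, chrX:93632156-93632305, minus strand: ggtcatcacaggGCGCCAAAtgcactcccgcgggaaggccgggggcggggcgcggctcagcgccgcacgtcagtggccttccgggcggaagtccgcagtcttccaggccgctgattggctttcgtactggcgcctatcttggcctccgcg

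Over the whole promoter window of 250 bases before to 50 after the start, and on both strands, TTTGAA lay in 12% of the 7971 tested genes with a single RefSeq promoter. It lay in 13 of 19 mitosis genes (68.4%) and in 2 of 18 replication genes (11.1%). The E2F letters lay in 3.25% of all genes, in 0 of 19 mitosis genes and in 7 of 18 replication genes (38.9%). Among the classes, TTTGAA lay in 32.8% of the genes that rose in both lineages, in 29.2% of Treg-lineage higher genes and in 11.9% of conventional-lineage higher genes. A match describes the letters only.

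The genes shown by their promoters rose in both lineages. Cdc20, an activator of the anaphase-promoting complex, shifted by 2.26 in Treg and 2.10 in conventional cells, and Kif11, a spindle motor, by 2.85 and 3.55. The origin licensing gene Cdc6 shifted by 2.94 and 2.14, the polymerase subunit Pola1 by 1.77 and 1.20, and the helicase subunit Mcm6 by 1.64 and 1.17. None of the differences passed the test in size, although those of Kif11, Cdc6, Pola1 and Mcm6 had adjusted p-values of 0.002, 0.000971, 0.000794 and 8.28e-06 (limma). The difference for Cdc6 was 0.81, and rose to 1.22 and passed after quantile normalisation.

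The 5 genes named for the strongest shared rises were Ccr2, Lgals3, S100a6, E2f8 and Ccr10. Ccr2, a receptor for monocyte chemoattractant chemokines, read 5.87, 5.78 and 6.53 in Tnaive and 10.68, 10.73 and 10.77 in Teff, and 9.62 to 10.02 in PAt and Arrested against 13.80 to 14.16 in Pers1 and Pers2. Its shifts were 4.17 ± 0.09 and 4.66 ± 0.13. Lgals3, galectin-3, shifted by 3.64 in Treg and 3.42 in conventional cells, and E2f8, a repressive E2F factor of the cell cycle, by 3.21 and 3.24. S100a6, a small calcium-binding protein, shifted by 3.34 and 5.29, and Ccr10, a skin-homing receptor, by 3.12 and 4.19. For these last genes the difference passed (adjusted p = 6.99e-12 for S100a6 and 0.000373 for Ccr10, limma), and that of Ccr10 fell from -1.07 to -0.86 without Teff replicate 1, -0.99 without Arrested replicate 1, -0.81 with Pers1 alone and -0.78 after quantile normalisation, each of which ended the call. Ccr10 overlaps Cntnap1 on the opposite strand, and the strand setting of the counting is not given in the sources used here.

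The shared falls were led by Igfbp4, which encodes a binding protein of insulin-like growth factors and marks naive T cells. Igfbp4 (chromosome 11, 99041244 to 99054392, plus strand) read 14.79, 14.67 and 14.71 in Tnaive and 10.40, 10.13 and 10.25 in Teff. It read 12.70, 12.44 and 12.56 in PAt, 13.02, 13.16 and 13.03 in Arrested, 8.96, 8.83 and 9.41 in Pers1 and 8.49, 8.91 and 8.38 in Pers2. In each lineage the groups were apart, and the shifts were -3.99 ± 0.09 in Treg and -4.46 ± 0.13 in conventional cells. Sorcs2, a sorting receptor, shifted by -3.94 and -3.19, the tetraspanin Tspan9 by -3.01 and -3.83, the receptor Treml2 by -2.66 and -2.47 and the adhesion molecule Amigo2 by -2.40 and -3.01. None of these 5 differences passed in size, but that of Tspan9 did without Teff replicate 2 (1.02 in place of 0.82). Their adjusted p-values were 0.0145 for Igfbp4, 0.00152 for Sorcs2, 0.00362 for Tspan9, 0.033 for Treml2 and 0.00699 for Amigo2 (limma).

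Genes of quiescence and the naive state fell in part in both lineages. Of 21 tested genes, 8 fell and 0 rose in the Treg shift and 9 fell and 2 rose (Id3 and Ccr9) in the conventional shift, with medians of -0.87 and -0.83. Among all tested genes, 2.77% fell and 4.74% rose in the Treg shift, and 2.28% fell and 8.88% rose in the conventional shift. Bcl2, which protects from apoptosis, fell by 2.97 on the log2 scale in Treg and by 2.23 in conventional cells, and Bach2, which restrains effector genes, fell by 2.10 and 1.58. Ccr7, the lymph node homing receptor, fell by 1.37 and 1.32. Myc, which drives growth and is not on that list, shifted by -1.68 and -1.81, and none of these 4 differences passed in size. The adjusted p-values were 3.69e-05 for Bcl2, 8.48e-05 for Bach2, 0.742 for Ccr7 and 0.221 for Myc (limma).

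Other genes of the quiescence list passed the test in 1 lineage only. Tcf7, which encodes the factor TCF-1, read 16.16, 16.12 and 16.14 in Tnaive and 16.04, 16.06 and 16.02 in Teff. It read 14.64 to 14.72 in PAt, 15.09 to 15.13 in Arrested, 13.68 to 13.74 in Pers1 and 13.00 to 13.25 in Pers2, so that the naive level remained in Teff and each Treg population stood below it. The Treg shift was -1.48 ± 0.04, the conventional shift -0.10 ± 0.05, and the difference of -1.38 passed (adjusted p = 1.56e-13, limma). Satb1, a chromatin organiser, fell by 1.09 in conventional cells, and its Treg shift was -0.01, with all Timer+ libraries between 13.35 and 13.99 and Teff between 13.92 and 13.98. Its difference of 1.08 was 0.86 after quantile normalisation, which ended the call. Id3, an inhibitor of E proteins, rose by 1.21 in conventional cells. Its Treg shift of -0.85 went the opposite way but was under the fold threshold (adjusted p = 2.52e-10, limma).

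**Figure D3:**
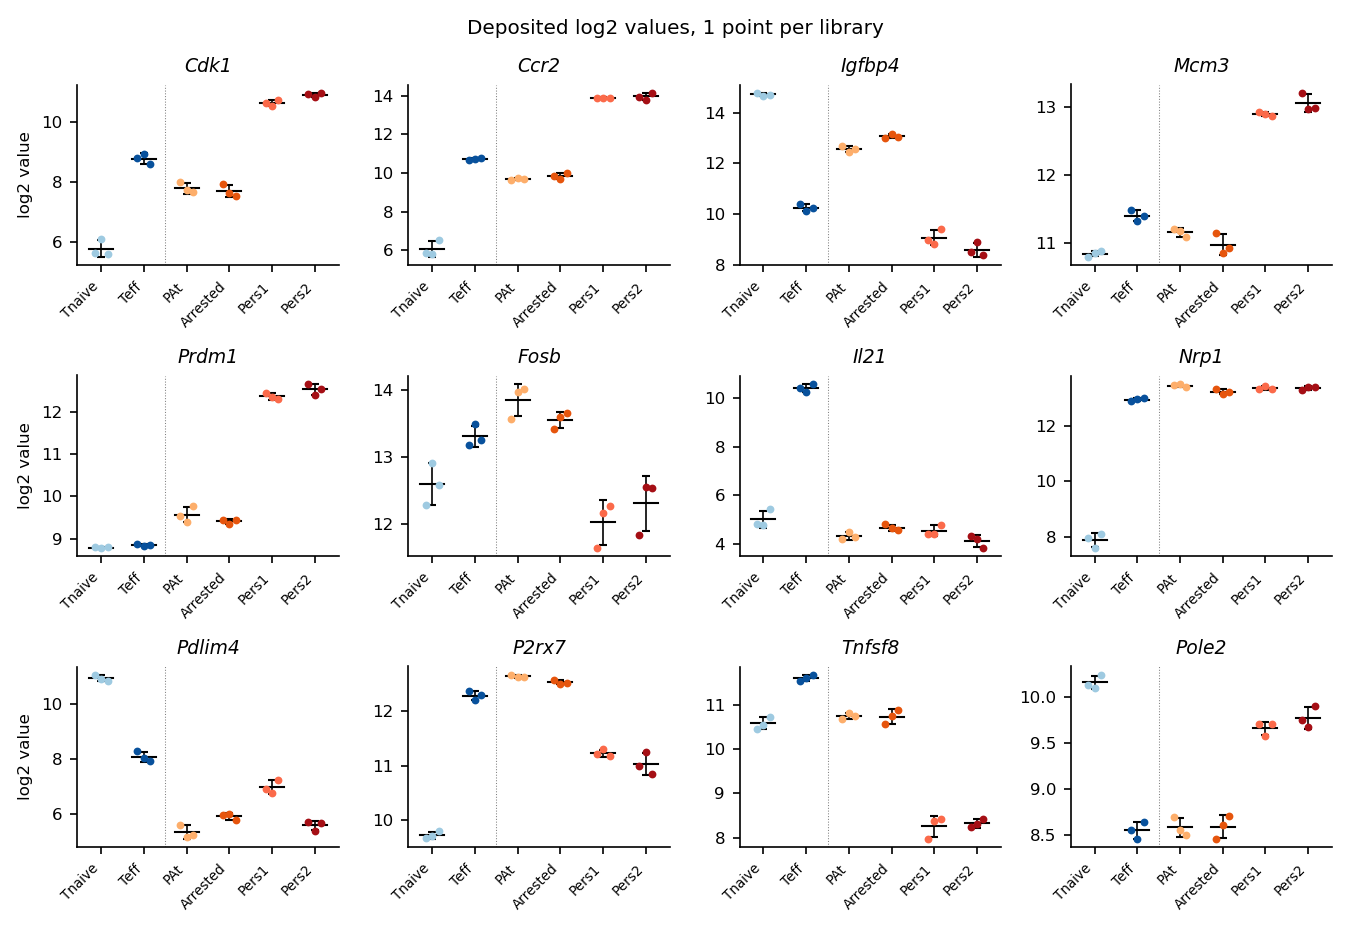
Deposited log2 values (y axis) of 12 genes in the 6 populations (x axis), with 1 point per library, the mean as a line and the SD as a bar (n = 3). Cdk1, Ccr2 and Igfbp4 move alike in both lineages, Mcm3, Prdm1 and Fosb differ in Treg, Il21, Nrp1 and Pdlim4 differ in conventional cells, and P2rx7, Tnfsf8 and Pole2 move in opposite directions.

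Treg-lineage rises were led by Prdm1, which encodes Blimp-1. Prdm1 (chromosome 10, 44437177 to 44528501, minus strand) read 8.79, 8.78 and 8.79 in Tnaive and 8.86, 8.82 and 8.85 in Teff. It read 9.54, 9.40 and 9.76 in PAt, 9.44, 9.34 and 9.43 in Arrested, 12.45, 12.36 and 12.29 in Pers1 and 12.66, 12.40 and 12.54 in Pers2. The persistent libraries lay above all others by a wide gap. The Treg shift was 2.97 ± 0.06, the conventional shift 0.06 ± 0.08, and the difference of 2.91 ± 0.10 passed (adjusted p = 1.61e-15, limma).

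Ccr3, the eotaxin receptor, read between 4.47 and 5.22 in Tnaive and Teff, between 5.90 and 6.76 in PAt and Arrested and between 8.90 and 9.24 in the persistent populations. Its shifts were 2.81 and 0.20. Oit3 rose by 1.94 in Treg and was between 4.34 and 4.74 in all other populations. Klrg1, a receptor of terminally differentiated effector cells, rose by 2.04 in Treg, from 7.14 to 8.10 in PAt and Arrested to 9.08 to 10.34 in the persistent populations, and read 4.66 to 4.97 in Tnaive and Teff.

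Epas1 and Itgam reached the same class by another course. Epas1, a hypoxia-inducible factor, read 9.25 to 9.34 in Tnaive and 8.75 to 9.29 in Teff, fell to 6.31 to 6.56 in PAt and 7.36 to 7.66 in Arrested, and read 8.81 to 9.26 in the persistent populations. Itgam, an integrin of myeloid cells that was also a monocyte marker here, read 8.24 to 8.54 in Tnaive and Teff, 6.17 to 6.74 in PAt and Arrested and 8.12 to 8.95 in the persistent populations. In both genes the persistent populations differed from Teff by amounts that did not pass, -0.02 and 0.19, and PAt and Arrested stood below it. Over the 88 Treg-lineage higher genes the median shifts were 1.40 and 0.16, and PAt and Arrested were lower than Tnaive in 4 genes and higher in 5. The persistent populations were higher than Teff in 74 (84.1%), against 4.28% of all genes higher and 4.03% lower in that comparison. The class was chosen from shifts of the same libraries, which favours a high persistent level, so these gaps are not separate evidence.

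Granzyme B stood between the classes. Gzmb, a serine protease of cytotoxic cells that effector Treg also use, read 5.11, 5.31 and 5.14 in Tnaive and 6.93, 7.32 and 7.48 in Teff. It read 8.25, 7.99 and 7.86 in PAt, 7.08, 6.87 and 7.60 in Arrested, 12.44, 12.41 and 12.78 in Pers1 and 13.11, 13.06 and 13.52 in Pers2. It rose in both lineages, by 5.28 ± 0.12 and 2.06 ± 0.17, and the difference of 3.23 passed (adjusted p = 5.26e-11, limma). Havcr2, the inhibitory receptor TIM-3, was similar in kind, with shifts of 3.92 and 2.56 and a difference of 1.35 that passed. Prf1, perforin, moved otherwise, with a fall by 2.27 in conventional cells from 9.50 to 9.74 in Tnaive to 7.25 to 7.61 in Teff, and with 7.33 to 8.12 in all Timer+ libraries and a Treg shift of -0.25.

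Metabolic lists leaned towards Treg but few of their genes passed. Of all tested genes, 4.74% rose and 2.77% fell in the Treg shift, and 8.88% rose and 2.28% fell in the conventional shift. In glycolysis 6 of 15 genes rose in the Treg shift and 2 in the conventional shift, with medians of 0.89 and 0.50. Hk2, the inducible hexokinase, went the other way with shifts of 0.89 and 2.14, and its difference of -1.25 was -0.88 after quantile normalisation and -0.99 with Arrested alone, either of which ended the call. In cholesterol synthesis 3 of 21 genes rose in the Treg shift and 1 in the conventional shift (0 under either other scaling), where 1 fell. The medians were 0.53 and 0.09, the latter -0.01 after quantile normalisation. All 21 Treg shifts lay above the conventional shifts, with sign, under each of the 3 scalings. Idi1, isopentenyl diphosphate isomerase, read 8.95 to 9.45 in all Tnaive, Teff, PAt and Arrested libraries and 10.03 to 10.59 in the persistent ones, with a difference of 1.40 that passed (adjusted p = 1.46e-07, limma).

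For the respiratory chain and ATP synthase, 0 of 29 genes passed in any of the 3 comparisons by limma, yet the medians were 0.42 and 0.10. The Treg shift lay above the conventional shift, with sign, in 29 of 29, and in 28 after quantile normalisation. For Myc and ribosome biogenesis genes, 1 of 19 fell in the Treg shift and 2 in the conventional shift, with medians of -0.04 and -0.63. For 38 cytosolic ribosomal protein genes 0 passed in either shift, and the medians were -0.32 and -0.58. With sign, the Treg shift lay above the conventional shift in 35 as deposited but in 14 after quantile normalisation, so no direction was given to their difference. The endoplasmic reticulum chaperones had 1 of 18 genes higher in the Treg shift and 0 in the conventional shift, with medians of 0.44 and 0.14.

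Treg-lineage falls often began from a raised level in PAt and Arrested. The 77 genes had median shifts of -1.43 and 0.10. In 41 of them (53.2%) PAt and Arrested stood above Tnaive, against 6.63% of all genes. The class was chosen from shifts that use the same PAt, Arrested and Tnaive libraries, which favours a raised level there, so this is not separate evidence. Dnah7a, a dynein heavy chain of cilia, read 4.74 to 5.01 in Tnaive, 5.29 to 5.47 in Teff, 9.93 to 10.06 in PAt and 8.78 to 8.84 in Arrested, and 6.45 to 8.14 in the persistent populations. Khdc1a read 4.26 to 4.53 in Tnaive and Teff, 6.97 to 7.53 in PAt and Arrested and 4.44 to 4.97 in the persistent populations. Ryr2, a calcium release channel, shifted by -2.005 in Treg and 0.70 in conventional cells, the zinc finger gene Zfp827 by -1.48 and 0.88, and the p38-family kinase Mapk12 by -1.71 and 0.54. In all 5 genes every PAt and Arrested library lay above every persistent library. The genes were named for the size of their difference in these libraries, which favours such a gap, so it is not separate evidence.

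Immediate early genes of T cell receptor signalling moved down in part in the Treg shift. Of 21 tested genes, 0 rose and 3 fell in the Treg shift (5 with libraries centred on their medians), 3 rose and 1 fell in the conventional shift, and the difference passed below 0 in 7 and above 0 in 0. The medians were -0.47 and 0.19. Among all tested genes, 2.77% fell in the Treg shift, 8.88% rose and 2.28% fell in the conventional shift, and the difference passed below 0 in 6.9%. Fosb, an AP-1 subunit, read 12.29, 12.92 and 12.59 in Tnaive and 13.18, 13.49 and 13.26 in Teff. It read 13.57, 13.97 and 14.01 in PAt, 13.42, 13.60 and 13.65 in Arrested, 11.65, 12.17 and 12.27 in Pers1 and 11.84, 12.56 and 12.54 in Pers2. Replicates of a population differed more than for most genes shown, and the groups were still apart in each lineage. The difference was -2.24 ± 0.22 (adjusted p = 3.62e-08, limma).

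Fos shifted by -1.46 in Treg and -0.37 in conventional cells and Jun by -2.09 and -1.09. Jun also varied between replicates, and its difference of -1.003 lay between -1.10 and -0.90 when libraries were left out, so its call was lost in 7 of these fits. Those were the fits without replicate 1 of Tnaive (-0.91), Pers1 (-0.91) or Pers2 (-0.90), Arrested replicate 2 (-0.97), or replicate 3 of Teff (-0.93), PAt (-0.92) or Arrested (-0.98). Egr2, a factor induced by receptor signals, rose by 1.69 in conventional cells and shifted by -0.21 in Treg. Dusp6, a phosphatase of ERK kinases, passed in neither shift (-0.99 and 0.71), and its difference of -1.70 passed (adjusted p = 3.5e-11, limma).

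Conventional-lineage rises numbered 569, and several of the genes with the greatest differences are known from other cell types. Among the 5 genes with the greatest differences, Mpeg1, a perforin-like gene of macrophages, Siglech, Pld4 and Csf2rb2 read 8.77 to 11.83 in Teff and no more than 7.29 in any other library. All of them were lowest in Teff replicate 3. The differences were -7.18 for Mpeg1, -6.83 for Siglech, -5.76 for Pld4 and -5.73 for Csf2rb2. Synpo, which encodes an actin-associated protein, had a difference of -5.89 but lay at 9.76 to 10.28 in PAt and Arrested and at 9.12 to 9.76 in the persistent populations.

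Most follicular helper genes rose in the conventional shift and not in the Treg shift, which starts from PAt and Arrested. Those populations already stood above Tnaive in 8 of the 17 genes tested, with a median gap of 0.69. Of 17 tested genes of the follicular programme, 14 rose in the conventional shift and 2 in the Treg shift, where 1 fell, and the difference passed below 0 in 13 and above 0 in 0. The medians were 2.56 and 0.01, and the latter was -0.05 and -0.02 after the other scalings. Among all tested genes, 8.88% rose in the conventional shift, and 4.74% rose and 2.77% fell in the Treg shift. The difference of all tested genes passed below 0 in 6.9% and above 0 in 1.52%, and PAt and Arrested stood above Tnaive in 6.63%. Il21, the cytokine of follicular helper cells (chromosome 3, 37222759 to 37232636, minus strand), read 4.84, 4.77 and 5.42 in Tnaive and 10.43, 10.25 and 10.60 in Teff. It read 4.20, 4.51 and 4.29 in PAt, 4.81, 4.65 and 4.56 in Arrested, 4.42, 4.40 and 4.8 in Pers1 and 4.34, 4.19 and 3.84 in Pers2. Every Treg library was at or below the highest naive one. The difference was -5.59 ± 0.20 (adjusted p = 4.89e-15, limma).

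Bcl6, the follicular master regulator, read 12.19 to 12.30 in Teff, 10.22 to 10.41 in Tnaive, 10.28 to 10.81 in PAt and Arrested and 9.36 to 9.83 in the persistent populations, so its shifts were 1.92 and -0.94. Cxcr5, the follicle homing receptor, and Tox2, a follicular factor, rose by 4.83 and 5.38 in conventional cells with Treg shifts of -0.16 and -0.14. Cxcr5 overlaps Bcl9l on the opposite strand, and B cells also express it. Pdcd1, the receptor PD-1, rose by 4.19 with a Treg shift of 0.16, where PAt and Arrested already read 10.04 to 10.65.

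Helper cytokines and TNF ligands showed the same split. Of 13 tested genes, 8 rose in the conventional shift and 1 in the Treg shift, where 2 fell. The difference passed below 0 in 10 and above 0 in 0. With sign, all 13 conventional shifts lay above the Treg shifts as deposited (12 of 13 with libraries centred on their medians). The medians were 1.33 and -0.22. Among all tested genes, 8.88% rose in the conventional shift, and 4.74% rose and 2.77% fell in the Treg shift. The difference of all tested genes passed below 0 in 6.9% and above 0 in 1.52%. Il4, the type 2 cytokine, read 4.65 to 5.04 in Tnaive, 7.94 to 8.64 in Teff and 4.59 to 5.70 in all Timer+ libraries. Its difference of -3.04 passed (adjusted p = 6.45e-12, limma).

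Genes known for Treg identity made up part of this class, and most genes of that list were high in PAt and Arrested whatever their class. Of 18 tested Treg identity and suppression genes, 17 were higher in PAt and Arrested than in Tnaive. In the Treg shift 5 rose and 1 fell, and in the conventional shift 13 rose and 1 fell, with medians of 0.21 and 1.99. Among all tested genes, 6.63% were higher in PAt and Arrested than in Tnaive. In the Treg shift 4.74% of them rose and 2.77% fell, and in the conventional shift 8.88% rose and 2.28% fell. Nrp1, a receptor of thymic Treg that plasmacytoid dendritic cells also carry, read 7.95, 7.60 and 8.10 in Tnaive and 12.90, 12.96 and 13.00 in Teff. It read 13.15 to 13.52 in PAt and Arrested and 13.29 to 13.44 in the persistent populations. Teff thus came within 0.41 of the persistent mean, and the difference of the shifts was -5.05 ± 0.10.

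Ikzf2, the Treg factor Helios, read 7.68 to 8.05 in Tnaive, 12.39 to 12.52 in Teff, 14.05 to 14.79 in PAt and Arrested and 14.53 to 15.06 in the persistent populations. Its conventional shift was 4.62, whereas Foxp3 was lower in Teff than in Tnaive by 0.81. Il2ra, the IL-2 receptor alpha chain, rose by 1.73 in conventional cells to 8.83 to 9.28 and lay at 13.72 to 14.67 in all Timer+ libraries, with a Treg shift of -0.12. Il2rb, the beta chain, rose by 3.74 in conventional cells and its Treg shift was 0.47.

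Over the 569 conventional-lineage higher genes the median shift was 0.00 in Treg and 1.84 in conventional cells. PAt and Arrested stood above Tnaive in 269 of them (47.3%), with a median gap of 0.92, against 6.63% of all genes. The persistent populations stood below Teff in 285 (50.1%), against 4.03% of all genes. The gaps use the same libraries as the shifts and give their parts, so they are not separate evidence.

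**Figure D4:**
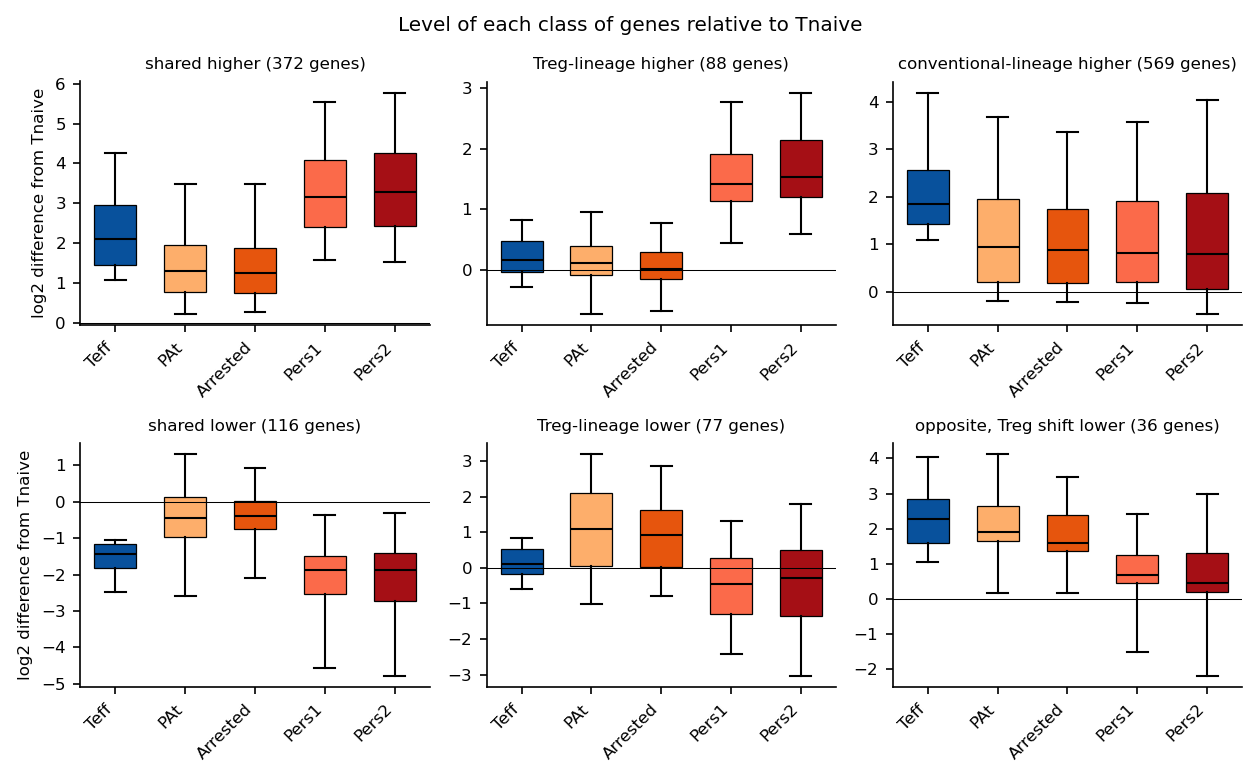
Difference of the population mean from Tnaive (y axis, log2) over the genes of 6 classes, for each other population (x axis). Boxes give the median and quartiles over genes and whiskers the 5th to 95th percentile, and over the 569 conventional-lineage higher genes and the 36 opposite genes lower in Treg the PAt and Arrested medians lie above Tnaive as well.

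Receptors and transcription factors showed graded forms of the split. As background to the lists below, 4.74% of all tested genes rose and 2.77% fell in the Treg shift. In the conventional shift 8.88% rose and 2.28% fell, and the difference passed above 0 in 1.52% and below 0 in 6.9%. Of 19 checkpoint and costimulatory receptors, 7 rose and 2 fell in the Treg shift, 12 rose and 1 fell in the conventional shift, and the difference passed below 0 in 8 and above 0 in 1. Tigit rose by 2.09 in Treg and 5.24 in conventional cells, Ctla4 by 1.69 and 3.90, and Icos by 2.48 and 3.29, of which the difference for Icos did not pass in size. These inhibitory and costimulatory receptors started higher in PAt and Arrested, as Tigit read 10.74 to 11.24 there against 5.93 to 6.83 in Tnaive. Ctla4 varied between the Tnaive replicates (9.89, 9.05 and 8.83), and its difference of -2.20 ± 0.24 still passed (adjusted p = 1.81e-07, limma).

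Of 18 lineage transcription factors, 10 rose in the Treg shift and 14 in the conventional shift, where 1 fell. Maf rose by 2.19 and 5.47 and Irf4 by 1.43 and 3.37, and for both the difference passed below 0. Persistent and Teff cells ended close together, with Irf4 at 12.80 to 13.64 and 13.14 to 13.31 and Maf at 13.77 to 13.98 and 13.28 to 13.53. Batf, their AP-1 partner, rose by 1.28 and 1.16 with a difference of 0.12 ± 0.12 that did not pass (adjusted p = 0.443, limma).

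Of 28 homing receptors and integrins, 10 rose and 3 fell in the Treg shift, and 15 rose and 4 fell in the conventional shift. Cxcr3, a receptor of type 1 responses, rose by 2.25 and 5.27, and Itgb1, the integrin beta 1 chain, by 1.40 and 4.69. Itga4, its alpha 4 partner, fell in both lineages, by 3.12 in Treg and 1.55 in conventional cells. Of 27 cytokine receptors, 5 rose and 2 fell in the Treg shift and 10 rose and 4 fell in the conventional shift, and the difference passed below 0 in 10 and above 0 in 1. Il4ra, the IL-4 receptor chain and the last of these, fell by 2.43 in conventional cells with a Treg shift of -0.81.

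**Figure D5:**
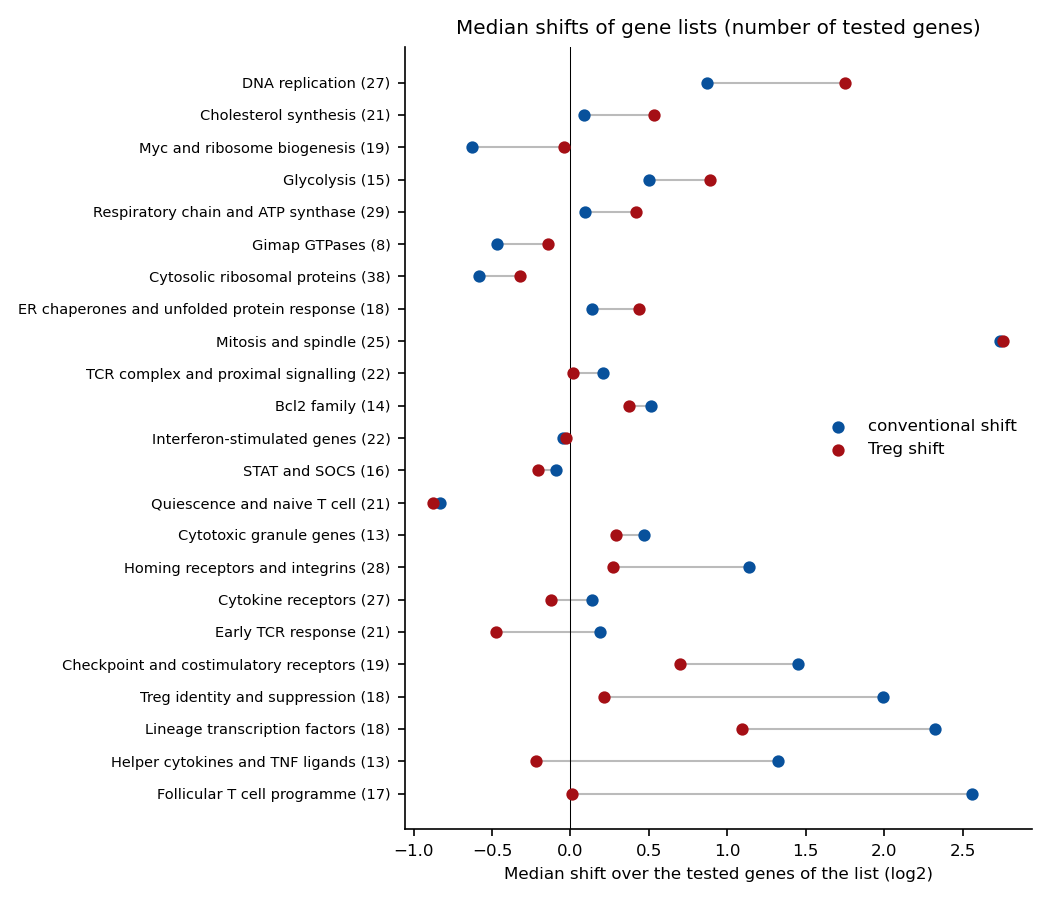
Median conventional shift (blue) and median Treg shift (red) over the tested genes of 23 gene lists, on a log2 scale, ordered by the median difference. Mitosis has equal medians at 2.74 and 2.76, DNA replication leans to Treg, and the follicular, cytokine and Treg identity lists lean to conventional cells.

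The remaining lists had fewer changes, some of them near the share of all tested genes. That share was 4.74% higher and 2.77% lower in the Treg shift and 8.88% higher and 2.28% lower in the conventional shift. For the difference it was 1.52% above 0 and 6.9% below 0. Of 22 interferon-stimulated genes 2 fell in the Treg shift and 2 rose and 2 fell in the conventional shift, and the difference passed below 0 in 3 and above 0 in 1. Of 13 cytotoxic granule genes 4 rose and 1 fell in Treg and 6 rose and 2 fell in conventional cells, and the difference passed above 0 in 4 and below 0 in 2. Of 14 Bcl2 family genes 2 rose and 1 fell in Treg and 3 rose and 1 fell in conventional cells, and the difference passed below 0 in 3 and above 0 in 0. The 3 were Pmaip1, which encodes the pro-apoptotic Noxa (-1.79), and the survival genes Bcl2a1b (-2.12) and Bcl2a1d (-2.69), near-identical copies whose reads may be split uncertainly. Of 16 STAT and SOCS genes 1 fell in Treg and 1 rose and 2 fell in conventional cells, and the difference passed below 0 in 1, the cytokine signal inhibitor Socs2 (-1.43). For 22 genes of the T cell receptor complex and its proximal signalling 0 passed in any of the 3 comparisons by limma. For 8 Gimap GTPases 0 passed in either shift, and the difference passed in Gimap7 (1.19).

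Conventional-lineage falls were few. In 27 of the 44 (61.4%) PAt and Arrested were already lower than Tnaive, against 1.27% of all genes. The choice of the class on the same libraries favours such a gap, so it is not separate evidence. Pdlim4, a LIM domain protein of the cytoskeleton (chromosome 11, 54054928 to 54069014, minus strand), read 11.06, 10.92 and 10.84 in Tnaive and 8.27, 8.04 and 7.91 in Teff. It read 5.61, 5.15 and 5.24 in PAt, 5.95, 6.00 and 5.76 in Arrested, 6.92, 6.77 and 7.24 in Pers1 and 5.70, 5.38 and 5.66 in Pers2, so every Treg library was below every conventional one. The conventional shift was -2.87 ± 0.15 and the difference 3.52 ± 0.18 (adjusted p = 9.02e-13, limma). Pers1 stood above PAt and Arrested and Pers2 overlapped them, so its Treg shift of 0.66 is a mean of unequal parts.

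In the other named genes of this class the Treg shift did not pass. Fam46a shifted by -1.96 in conventional cells and 0.20 in Treg, Igsf23 by -1.85 and 0.26, and the arginine deiminase Padi3 by -1.60 and 0.76. Mb21d1, the DNA sensor cGAS, read 8.19 to 8.27 in Tnaive, 6.97 to 7.25 in Teff, 7.77 to 7.98 in PAt and Arrested and 8.59 to 9.16 in the persistent populations. Its shifts were 0.97 in Treg, just under the fold threshold, and -1.07 in conventional cells. All 4 differences passed.

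Opposite changes numbered 41. The 36 genes that fell in Treg and rose in conventional cells were 9.86% of the lower Treg calls and 3.07% of the higher conventional calls. These shares were near the background, as 8.88% of all tested genes were higher in the conventional shift and 2.77% lower in the Treg shift. The 5 that did the reverse were 0.8% of the higher Treg calls and 1.66% of the lower conventional calls. The matching shares of all genes were 2.28% lower in the conventional shift and 4.74% higher in the Treg shift. With PAt alone as the resting population the total of 41 became 67, with Arrested alone it became 28, and with a log2 fold change over 1.5 in both shifts it became 1. In 31 of the 36 (86.1%) PAt and Arrested stood above Tnaive, against 6.63% of all genes, a gap that the choice of the class on the same libraries favours. The 36 included B cell markers such as Cd79a and Ms4a1, while 2 were plasmacytoid dendritic cell markers (Ccr9 and Spib) and 1 was a CD8 T cell marker (Cd8a). The summed B cell markers were highest in Teff, then in PAt and Arrested, then in the persistent populations and lowest in Tnaive, and their part in this class was not tested.

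P2rx7, an ATP-gated channel that restrains follicular helper cells and sensitises Treg to death (chromosome 5, 122643911 to 122691432, plus strand), read 9.67, 9.71 and 9.80 in Tnaive and 12.37, 12.20 and 12.29 in Teff. It read 12.67, 12.63 and 12.62 in PAt, 12.57, 12.50 and 12.52 in Arrested, 11.21, 11.30 and 11.17 in Pers1 and 10.99, 11.26 and 10.85 in Pers2. The activated conventional cells were close to PAt and Arrested, and the persistent populations lay between these and Tnaive. The shifts were -1.46 ± 0.05 and 2.56 ± 0.07, and the difference was -4.02 ± 0.09 (adjusted p = 3.89e-18, limma).

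Tnfsf8, the CD30 ligand (chromosome 4, 63831308 to 63861347, minus strand), took a simpler course. It read 10.46, 10.55 and 10.72 in Tnaive and 11.53, 11.60 and 11.67 in Teff, and 10.56 to 10.88 in PAt and Arrested against 7.98 to 8.43 in Pers1 and Pers2. PAt and Arrested were at the naive level, so that the lineages parted from a like level, by 1.02 upwards in conventional cells and 2.45 downwards in Treg. Ccr9, a gut-homing receptor, fell from 7.96 to 8.36 in PAt and Arrested to 5.71 to 6.39 in the persistent populations, and read 8.34 to 8.49 in Tnaive and 9.19 to 9.95 in Teff. Ccr9 was also a plasmacytoid dendritic cell marker here, was lowest in Teff replicate 3, and overlaps genes on the opposite strand.

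The other opposite genes included feedback and signalling genes. Spry1, an inhibitor of receptor signalling to ERK, shifted by -1.36 in Treg and 2.25 in conventional cells. Syk, a kinase that B cells and myeloid cells use in place of Zap70, shifted by -1.42 and 3.08. Cpne7, a calcium-dependent membrane-binding protein, shifted by -2.40 and 1.99, and Sspo by -1.49 and 3.50. In each of these genes the 6 persistent libraries were lower than all libraries of PAt and Arrested and Teff lay above Tnaive, except in Sspo, where Pers2 reached 10.33 and Arrested went down to 10.28. The genes were named for the size of their shifts in these libraries, which favours such gaps.

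The 5 genes of the reverse direction had modest Treg shifts, between 1.04 and 1.52. Pole2, a subunit of DNA polymerase epsilon (chromosome 12, 69201773 to 69228195, minus strand), read 10.13, 10.10 and 10.24 in Tnaive and 8.56, 8.46 and 8.64 in Teff. It read 8.70, 8.56 and 8.50 in PAt, 8.46, 8.61 and 8.71 in Arrested, 9.70, 9.57 and 9.70 in Pers1 and 9.75, 9.67 and 9.90 in Pers2. Teff, PAt and Arrested overlapped, and the persistent populations lay between them and Tnaive. The difference was 2.73 ± 0.11 (adjusted p = 2.19e-14, limma). Nacc2, a transcriptional repressor, shifted by 1.34 and -1.55, the arginine deiminase Padi2 by 1.17 and -1.05, the muscle protein nebulin gene Neb by 1.52 and -1.02, and Adam6b by 1.04 and -1.23.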

How the data were processed

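RNA-seq was analysed in 18 libraries of 6 sorted populations. The authors prepared stranded mRNA libraries, processed reads with CASAVA 1.8.2, FastQC 0.11.2, TopHat2 2.0.9 and DESeq2 per the labels, and aligned 100-bp paired-end reads to mm10, to which the Timer gene was added in some runs. They deposited log2 values of normalised read counts, which resemble DESeq2's regularised log (-0.02 to 18.89, with 173 negative values), which draws low-count fold changes towards 0. The counting tool and its strand setting are not given in the sources used here. Read counts were not analysed here, so depth is unknown and precision rests on 3 replicates.

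The values were used as deposited. In the 13190 genes with a mean of at least 3 (2212 left out), 1 linear model of the 6 populations was fitted to 18 libraries (leaving 12 degrees of freedom) by limma (version 3.58.1, R 4.3.3), with a mean-variance trend in the moderation and Benjamini-Hochberg adjustment over all tested genes. Shifts and their difference were contrasts of this model, called where the adjusted p was under 0.05 and the log2 fold change exceeded 1 in size, the thresholds of the study. Errors of shifts are standard errors. A simulation with 200 of 13190 genes changed by a log2 difference of 2 in Pers1 and Pers2 recovered 200 with 0 false calls. It used flat gene means, independent noise and an effect well over the fold threshold, so it checks the calling steps only. Correlated replicates, mixed cell types and effects near the threshold were not simulated.

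The comparison, the gene lists and the marker lists were chosen with earlier results of these data known, and some genes are on more than 1 list. Up to 5 genes of each of 8 classes were named, by the larger difference for lineage classes and by the larger of the smaller shifts for shared and opposite classes, leaving out predicted genes and the 22 rows with a date as symbol, and list members were named in addition. Coordinates came from GENCODE vM21 and promoters from RefSeq, which held 9938 of 13189 symbols, 7971 with a single promoter.

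The model had no block for the replicate, and p-values measure the spread between these libraries. Alternatives to the filter, thresholds, scaling, variance trend and make-up of the Treg shift, a replicate block and fits without single libraries were run, and the scalings of the lists were added after seeing the data. Python 3.11.15 with matplotlib 3.10.9 drew the figures.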

Additional observations from a re-analysis of the deposited data

Results flagged for a closer look

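The Treg shift and the conventional shift differed in 1110 genes by a test of the difference itself (limma, adjusted p under 0.05 and an absolute log2 difference over 1). The values below are the Treg shift minus the conventional shift on the log2 scale, from 6 populations of 3 libraries.

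Among shared genes the difference was -1.95 for S100a6 and -1.07 for Ccr10. It was 2.91 for Prdm1, 2.61 for Ccr3, 2.25 for Epas1, 2.16 for Itgam and 2.13 for Oit3, which rose in Treg. It was -2.70 for Dnah7a, -2.70 for Ryr2, -2.36 for Zfp827, -2.32 for Khdc1a and -2.26 for Mapk12, which fell in Treg. Among genes that rose in conventional cells it was -7.18 for Mpeg1, -6.83 for Siglech, -5.89 for Synpo, -5.76 for Pld4 and -5.73 for Csf2rb2. Among genes that fell there it was 3.52 for Pdlim4, 2.36 for Padi3, 2.16 for Fam46a, 2.11 for Igsf23 and 2.04 for Mb21d1.

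The genes of opposite direction differed by 2.89 for Nacc2, 2.73 for Pole2, 2.54 for Neb, 2.27 for Adam6b and 2.23 for Padi2. In the reverse direction the values were -4.99 for Sspo, -4.50 for Syk, -4.39 for Cpne7, -4.02 for P2rx7 and -3.61 for Spry1.

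In the cell cycle lists the difference was 1.79 for Kif23, -1.26 for Mki67, 1.38 for Prim1, 1.36 for Mcm3, 1.24 for Mcm2, 1.09 for Pcna and -1.05 for Tk1. In the quiescence list it was -2.06 for Id3, -1.38 for Tcf7 and 1.08 for Satb1. For genes of Treg identity it was -5.05 for Nrp1, -4.20 for Ikzf2, 3.23 for Gzmb and -1.85 for Il2ra. For checkpoint receptors it was -4.03 for Pdcd1, -3.15 for Tigit, -2.20 for Ctla4 and 1.35 for Havcr2. For cytokines, their receptors and cytotoxic genes it was -5.59 for Il21, -3.47 for Tnfsf8, -3.04 for Il4, -3.27 for Il2rb, 1.62 for Il4ra, 2.02 for Prf1 and 2.00 for Klrg1.

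For follicular genes and transcription factors it was -5.52 for Tox2, -4.99 for Cxcr5, -2.86 for Bcl6, -3.28 for Maf and -1.95 for Irf4. For homing genes it was -3.32 for Ccr9, -3.30 for Itgb1, -3.02 for Cxcr3 and -1.58 for Itga4. For early response genes it was -2.24 for Fosb, -1.90 for Egr2, -1.70 for Dusp6, -1.09 for Fos and -1.003 for Jun. For metabolic genes it was 1.40 for Idi1 and -1.25 for Hk2.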

How the results depend on the processing

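The counts of genes in the Treg shift, the conventional shift, their difference, shared changes, Treg-lineage changes, conventional-lineage changes and opposite changes (990, 1472, 1110, 488, 165, 613 and 41) followed the fold threshold. With no minimum fold change they were 9357, 7785, 6420, 5064, 1812, 1232 and 1064, and with a log2 fold change over 1.5 they were 390, 812, 584, 231, 31, 404 and 1. Opposite changes numbered 67 with PAt alone as the resting population, 28 with Arrested alone and 233 with a log2 fold change over 0.5 in both shifts. After quantile normalisation Treg-lineage changes numbered 222 and conventional-lineage changes 553, and with libraries centred on their medians 184 and 586. With a mean of at least 5 as the filter, conventional-lineage changes numbered 490 and the difference passed in 965 genes. Without single libraries the counts ranged over 973 to 1034, 1454 to 1486, 1100 to 1150, 480 to 499, 159 to 179, 599 to 620 and 37 to 47.

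Libraries share a replicate number across populations, which no source used here ties to a pool. Deviations from the population means had a median correlation of 0.166 over 45 pairs of the same number (-0.206 to 0.436, 42 above 0) and -0.064 over 90 pairs of different numbers. With the replicate block the counts were 992, 1473, 1110, 488, 165, 613 and 41, and with differences formed within each number they were 993, 1474, 1113, 488, 167, 614 and 41.

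Of 96 named genes, 80 kept their direction and side of the threshold for the difference under all 27 settings, 9 changed side in some setting (Ccr10, Tspan9, Cdc6, Tk1, Satb1, Foxp3, Fos, Jun and Hk2) and 7 changed sign, each from a difference near 0 that had not passed. With libraries centred on their medians Ccnb1 was 0.0141, and after quantile normalisation E2f8 was 0.30 and Ccnb1 0.35. With Pers1 alone Treml2 was 0.0808, Cdk1 -0.11, Ccr7 0.0022 and Myc -0.0095, and with Pers2 alone E2f8 was 0.0154. With PAt alone Cdk1 was -0.0278, Ccnb1 0.0909, Ccr7 0.0364 and Myc -0.0417, and with Arrested alone E2f8 was 0.14 and Cdc20 -0.0123. Without single libraries Ccnb1 ranged from -0.0657 to 0.0876, Cdk1 from -0.1339 to 0.1089, Ccr7 from -0.1131 to 0.0172 and E2f8 from -0.1471 to 0.0337. The cause of these changes was not tested. The transform draws low values together, so depth limits cannot be read from these values.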
